A study of Mus musculus with 18 samples.

Results

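PD-L1 and 9 other inhibitory immune ligands and receptors were followed in mouse plasmacytoid dendritic cells (pDCs) given imiquimod. They are the 10 genes Cd274, Pdcd1lg2, Lgals9, Pvr, Cd200, Cd47, Tgfb1, Havcr2, Vsir and Cd200r1, chosen by gene symbol from the 54532 genes of the raw count table. All 10 were found as 1 row each, and all 10 were among the 14876 genes that passed the expression filter. Pdcd1lg2, with 4 to 10 counts in each library without imiquimod, passed only through the imiquimod libraries and so had to differ. The other 9 lay above the filter's minimum count of 10 in every library.

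The cells were differentiated over 7 days from wild-type C57BL/6 bone marrow with Flt3 ligand at 80 ng/mL and then enriched on beads for the surface protein B220, at a routine purity of 80%. Imiquimod, an agonist of the RNA sensor TLR7, was given at 2.5 µg/mL for 6 or 16 h. The control agent is a vehicle that the labels call LAL, a short form of Limulus amebocyte lysate. Whether it is the lysate itself or LAL reagent water is not told by the labels. There were 6 groups of 3 libraries: untreated at 0 h, vehicle at 0 h, vehicle at 6 h, imiquimod at 6 h, vehicle at 16 h and imiquimod at 16 h. Genotype, strain, Flt3 ligand and B220 selection are shared by all groups, animal age is not given, and no label ties the 3 libraries of a group to different cultures or mice. The p-values therefore rest on the spread among these libraries alone, and that spread may be technical.

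Inhibitory ligands on an antigen-presenting cell engage receptors on T cells, NK cells or phagocytes and restrain them. PD-L1 and PD-L2 bind PD-1, galectin-9 binds TIM-3, PVR (CD155) binds the inhibitory receptors TIGIT and CD96 and the activating receptor DNAM-1, CD200 binds the CD200 receptor on myeloid cells, and CD47 binds SIRP-alpha. Interferons acting through JAK kinases and IRF1, and NF-kappaB signals, are known inducers of PD-L1, and pDCs are known for making type I interferon after TLR7 is engaged.

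Total counts per library ran from 10609741 to 13447018, and levels are given as CPM, counts scaled to library size with edgeR's TMM factors, which set the bulk of genes equal between libraries. The TMM factors of the imiquimod libraries at 6 h were 0.817 to 0.837, against 1.01 to 1.07 in all others. Scaling by library totals in their place shifted the median log2 fold change over all genes by -0.35 at 6 h and by -0.01 at 16 h, so small changes at 6 h depend on the scaling. The cells were checked against 14 pDC markers, all of them detected in every group, with a summed level of 8000 to 8150 CPM in untreated libraries. The sum was 7770 to 7960 CPM with vehicle and 7230 to 7570 with imiquimod at 6 h, and 9540 to 9640 CPM with vehicle and 5050 to 5140 with imiquimod at 16 h. Of the 14, 8 were called higher and 6 lower at 6 h and 3 higher and 8 lower at 16 h. Of all genes tested, 76.9% were called at 6 h and 77.2% at 16 h. The marker sums and calls are with TMM and were not repeated with library totals. These are bulk libraries, so fewer cells of a type and less RNA per cell cannot be told apart. The share of counts in rRNA-like genes (annotated rRNA genes and Gm26917, Gm42418 and Gm23935) was 15.5 to 16.6% with vehicle and 11.8 to 12.1% with imiquimod at 6 h, and 16.9 to 17% and 11.9 to 13.2% at 16 h, and its part in the results was not tested. No 2 libraries held identical values.

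Cd274 and Pdcd1lg2 lie side by side on chromosome 19, and the promoters of these genes and of Lgals9 are shown because these 3 ligands had the highest log2 fold changes of the 10 genes. RefSeq's promoter table (GRCm38.p6, the same assembly as mm10) covers 250 bases before to 50 after each start and held 8 of the 10 genes, all but Pvr and Cd200r1. The windows were searched on both strands for 3 patterns, which may overlap one another. They were the core of the interferon-stimulated response element (GAAA, any 2 bases, GAAA), present in 3.44% of 32851 promoters, the core of the gamma-activated site (TTCNNNGAA), in 8.3%, and a loose kappaB site (GGG, any 5 bases, CC), in 50.8%. Capitals mark the kappaB match in Pdcd1lg2 and the interferon match in Lgals9, and positions are counted from the start in RefSeq's promoter table. A kappaB match of Lgals9, GGGAACACCC at -129, is left in small letters.
Cd274, chr19:29367391-29367437, plus strand, bases -47 to -1: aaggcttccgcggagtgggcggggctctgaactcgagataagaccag
Pdcd1lg2, chr19:29410669-29410768, plus strand, the first 100 bases of the window: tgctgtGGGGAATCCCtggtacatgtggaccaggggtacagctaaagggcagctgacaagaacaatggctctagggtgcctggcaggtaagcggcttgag
Lgals9, chr11:78984947-78985074, minus strand, bases -150 to -23: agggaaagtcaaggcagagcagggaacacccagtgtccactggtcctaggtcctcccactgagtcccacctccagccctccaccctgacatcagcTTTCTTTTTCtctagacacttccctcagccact
The Cd274 stretch is the 47 bases between the Cd274 start in RefSeq's promoter table and the start that GENCODE M21 gives for Plgrkt. Plgrkt is a plasminogen receptor gene on the other strand, which RefSeq starts farther from Cd274. RefSeq's whole span of Cd274 begins farther upstream, at 29362107, and overlaps that of Plgrkt, so the window covers a single start. The printed stretch holds 4 CG dinucleotides. None of the 3 patterns was found in the whole Cd274 window, which says only that these letters are not in it. The Pdcd1lg2 match is the kappaB-like GGGGAATCCC at -244. Lgals9 had the interferon pattern at -55, printed above as its reverse complement, and again at +16, and was the single gene of the 8 with it. No gene of the 8 held the gamma-activated pattern, and the kappaB pattern was also found in Lgals9 and Tgfb1.

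Imiquimod raised the mRNA of the inhibitory ligands PD-L1, PD-L2, galectin-9, PVR and CD200, in each case at 6 h and at 16 h. At both times it lowered the mRNA of the receptors TIM-3 and CD200R1, the surface protein VISTA and the cytokine TGF-beta 1. These are RNA libraries, and protein was not measured. At 6 h against the vehicle of that time, 6 of the 10 genes were called higher and 4 lower in edgeR's quasi-likelihood test at an adjusted p under 0.05. The background is high: 76.9% of all genes tested were called in that comparison, 37.7% higher and 39.2% lower, so a share of calls near it is no result about the 10 genes. With library totals as the scale, 31.1% of all calls at 6 h were higher in place of 49%, and 5 of the 10 genes were higher and 5 lower. At 16 h 5 were higher and 5 lower, where 77.2% of all genes were called, 39.1% higher and 38.1% lower. A called change of at least 2-fold was seen in 8 of the 10 at each time, against 35.5% of all genes at 6 h and 33.4% at 16 h. The median absolute log2 fold change of the 10 genes was 2.06 at 6 h and 2.51 at 16 h, beside 0.67 and 0.64 over all genes tested. The 10 genes were chosen with earlier results of these data known, and Pdcd1lg2 had to differ because of the filter. An excess of large changes over all genes is therefore no result about the 10 genes. In all 10 genes the imiquimod libraries and their time-matched vehicle libraries did not overlap at either time, which was also so for 76.6% and 78.7% of all genes.

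**Figure D1:**
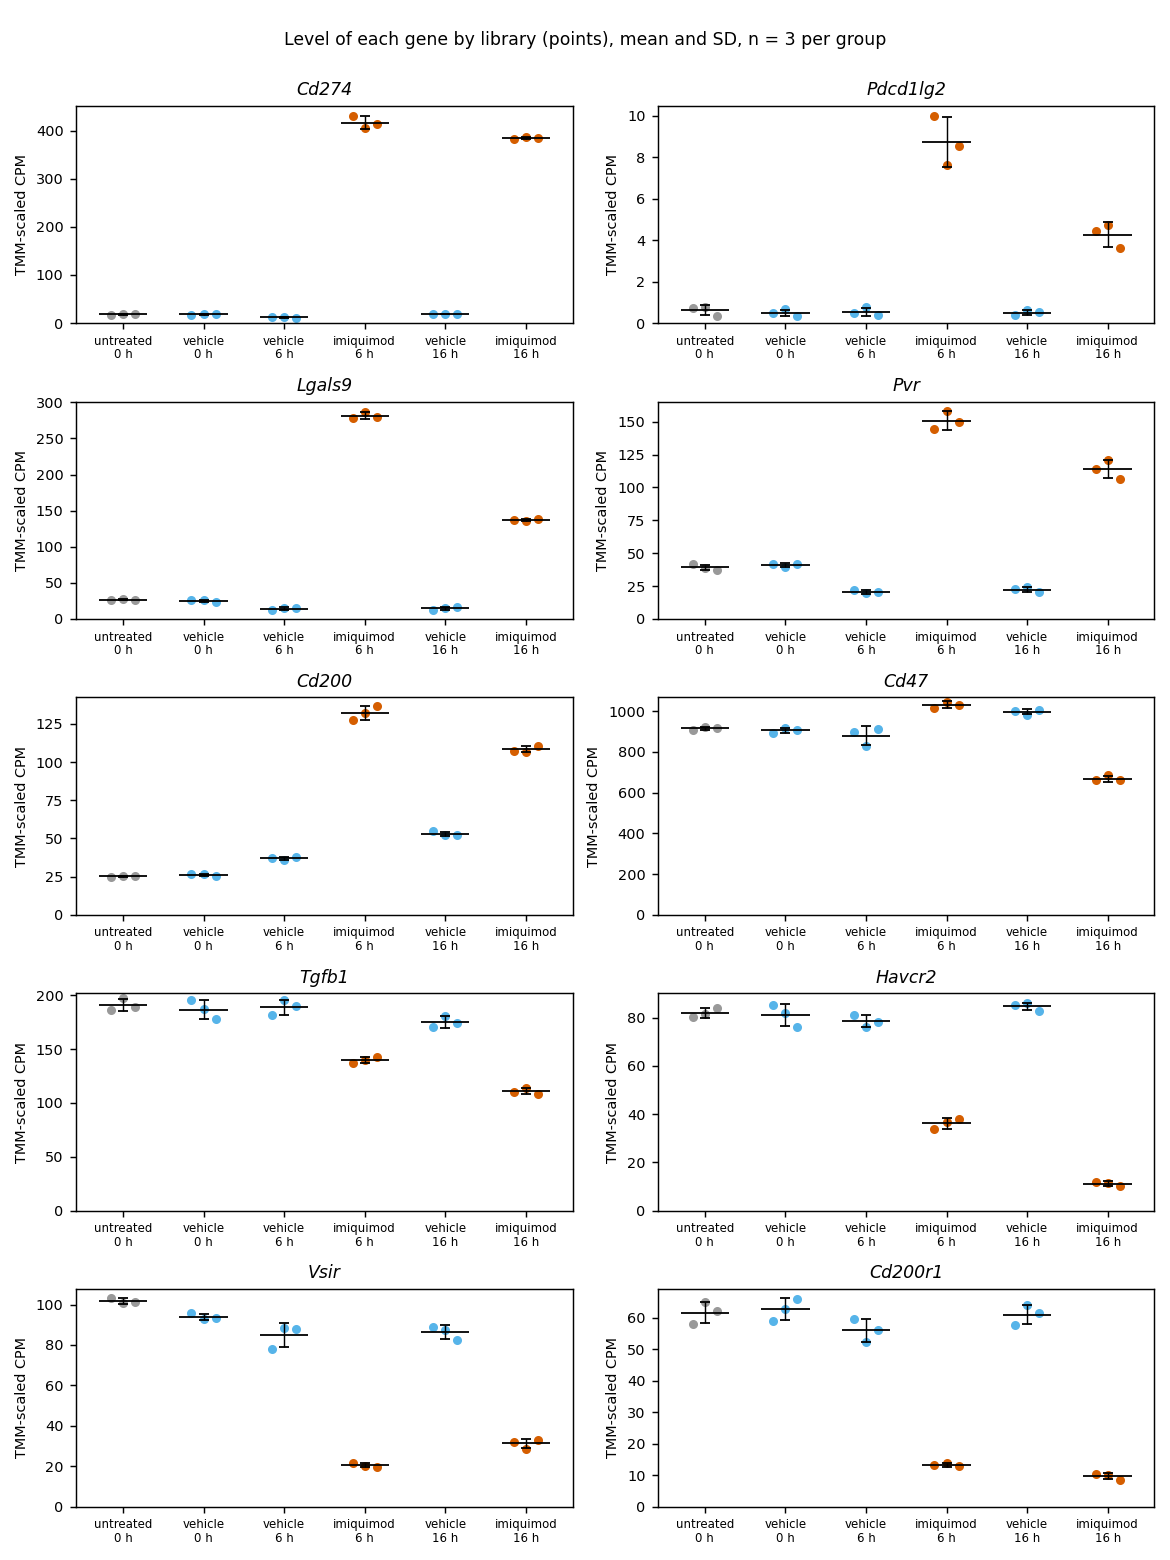
Level of each of the 10 genes in every library, in TMM-scaled CPM on a linear axis, by group (untreated, vehicle and imiquimod, 3 libraries each). Cd274 sits between 10.4 and 19.4 CPM in all libraries without imiquimod and between 383 and 431 with it, while Havcr2, Vsir and Cd200r1 lie lower with imiquimod.

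Cd274 (ENSMUSG00000016496, chromosome 19, 29367455 to 29388095, plus strand, mm10) encodes PD-L1, the main ligand of PD-1. Its level was 17.5, 19.1 and 19.3 CPM in the untreated libraries, 16.1, 18.4 and 18.95 CPM with vehicle at 0 h, 12.3, 12.03 and 10.4 CPM with vehicle at 6 h and 17.8, 19.4 and 19.1 CPM with vehicle at 16 h. With imiquimod it was 431, 405 and 415 CPM at 6 h and 383, 386 and 384 CPM at 16 h. All 6 imiquimod libraries stood far above all 12 others. The vehicle libraries at 6 h were the lowest of all. The log2 fold change was 5.17 (SE 0.053, adjusted p = 2.64e-78) at 6 h, a 35.9-fold rise, and 4.35 (SE 0.05, adjusted p = 1.73e-74) at 16 h, a 20.5-fold rise. Among all genes tested, 1.59% had a higher log2 fold change at 6 h and 1.61% at 16 h. The imiquimod levels of the 2 times differed by -0.12 (log2, 16 h against 6 h, adjusted p = 0.00175), a sign that turned to 0.18 (adjusted p = 3.25e-06) when libraries were scaled by their totals. Against the common start, the vehicle at 0 h, Cd274 was 23.4-fold higher at 6 h and 21.6-fold higher at 16 h. An antisense gene, AC119228.1, overlaps 511 nt of the Cd274 exons and is not a row of the count table, and the strand setting of the counting is not given in the sources used here, so reads from it cannot be told apart from Cd274 reads. Of the 75 nt windows of Cd274 transcripts 9.22% also occur in another gene, and 0.846% when that antisense gene is left out.

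Pdcd1lg2 (ENSMUSG00000016498, chromosome 19, 29410919 to 29471161, plus strand) encodes PD-L2, the second PD-1 ligand, and its start lies 43.5 kb beyond that of Cd274. Its raw counts were 8, 10 and 4 in untreated libraries, 6, 8 and 4 with vehicle at 0 h, 6, 10 and 5 with vehicle at 6 h and 4, 7 and 6 with vehicle at 16 h. With imiquimod they were 102, 79 and 87 at 6 h and 61, 63 and 45 at 16 h. The imiquimod libraries were all higher than the rest, and those at 6 h were all higher than those at 16 h. The log2 fold change was 3.96 (SE 0.25, adjusted p = 3.47e-25) at 6 h and 3.06 (SE 0.3, adjusted p = 1.32e-15) at 16 h. These are 15.5-fold and 8.32-fold rises from a base of about 0.5 CPM, and they are the least precise of the 10 genes. Per kilobase of exon, Pdcd1lg2 stood at 0.0386 ± 0.00401 (SD, n = 3) of the Cd274 level in the same libraries at 6 h and at 0.0205 ± 0.00277 at 16 h, so PD-L2 mRNA stayed a small fraction of PD-L1 mRNA. That ratio was 0.0615 ± 0.0248 in untreated libraries.

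Lgals9 (ENSMUSG00000001123, chromosome 11, 78962974 to 78984946, minus strand) encodes galectin-9, a ligand of TIM-3. It was at 26.4, 26.9 and 25.9 CPM in untreated libraries and 25.5, 26.4 and 23.1 CPM with vehicle at 0 h. With vehicle it was 11.9, 15.3 and 14.9 CPM at 6 h and 12.4, 14.4 and 16.9 CPM at 16 h, and with imiquimod it was 279, 287 and 279 CPM at 6 h and 137, 135 and 138 CPM at 16 h. The 3 sets, start of culture, later vehicle and imiquimod, did not overlap, with the later vehicle lowest. The rise over the vehicle of the same time was 4.33 (log2, SE 0.059, adjusted p = 1.39e-69, 20.1-fold) at 6 h and 3.23 (SE 0.064, adjusted p = 4.72e-58, 9.36-fold) at 16 h. Since the vehicle level itself fell during culture, the rise was smaller against vehicle at 0 h, at 11.3-fold for 6 h and 5.47-fold for 16 h.

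Pvr (ENSMUSG00000040511, chromosome 7, 19903578 to 19921160, minus strand) encodes the poliovirus receptor homologue CD155. Its level was 41.6, 38.6 and 37.4 CPM in untreated libraries and 41.9, 39.2 and 41.4 CPM with vehicle at 0 h. It was 21.9, 19.4 and 20.2 CPM with vehicle at 6 h against 145, 158 and 149.7 CPM with imiquimod, and 22.5, 23.9 and 20.2 CPM with vehicle at 16 h against 114, 121 and 107 CPM with imiquimod. As for Lgals9, the later vehicle libraries lay below the start of culture and the imiquimod libraries above it, without overlap. The log2 fold change was 2.88 (SE 0.06, adjusted p = 5.33e-57, 7.36-fold) at 6 h and 2.36 (SE 0.061, adjusted p = 3.91e-50, 5.14-fold) at 16 h. Against vehicle at 0 h Pvr was 3.69-fold higher at 6 h and 2.79-fold higher at 16 h.

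Cd200 (ENSMUSG00000022661, chromosome 16, 45382135 to 45409053, minus strand) encodes a ligand that quiets myeloid cells through CD200R1. Its level was 24.5, 25.3 and 25.6 CPM in untreated libraries and 26.5, 26.7 and 25.5 CPM with vehicle at 0 h. It was 37.5, 35.8 and 37.6 CPM with vehicle at 6 h against 127, 132 and 137 CPM with imiquimod, and 54.7, 52.2 and 52.6 CPM with vehicle at 16 h against 107.5, 107 and 110.5 CPM with imiquimod. Unlike Lgals9 and Pvr, Cd200 climbed in the vehicle too, to 2.02-fold of the 0 h vehicle at 16 h (log2 1.02, adjusted p = 7.21e-26). The rise with imiquimod was 1.84 (log2, SE 0.05, adjusted p = 1.55e-48, 3.57-fold) at 6 h and 1.03 (SE 0.048, adjusted p = 1.05e-32, 2.04-fold) at 16 h. Against vehicle at 0 h it was 5.02-fold and 4.12-fold.

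Cd47 (ENSMUSG00000055447, chromosome 16, 49800533 to 49915010, plus strand) encodes the signal that restrains phagocytosis through SIRP-alpha. It was at 909, 920.5 and 918 CPM in untreated libraries and 889.8, 918 and 907 CPM with vehicle at 0 h. The level was 897, 828 and 913 CPM with vehicle at 6 h against 1013, 1046 and 1032 CPM with imiquimod, and 999.7, 982 and 1006 CPM with vehicle at 16 h against 659.5, 684 and 661 CPM with imiquimod. The imiquimod libraries were thus highest at 6 h and lowest at 16 h. At 6 h the difference was small and depended on the scaling: the log2 fold change was 0.23 (SE 0.032, adjusted p = 8.79e-10) with TMM and -0.12 (adjusted p = 0.000285) with library totals. At 16 h Cd47 fell by 0.58 (log2, SE 0.032, adjusted p = 2.72e-28), and was 1.49-fold lower.

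Tgfb1 (ENSMUSG00000002603, chromosome 7, 25687002 to 25705077, plus strand) encodes the latent cytokine TGF-beta 1. It was at 187, 197 and 189 CPM in untreated libraries and 195, 187 and 178 CPM with vehicle at 0 h. The level was 181, 195 and 189.8 CPM with vehicle at 6 h against 137, 139.9 and 143 CPM with imiquimod, and 170.3, 181 and 175 CPM with vehicle at 16 h against 110.5, 114 and 108 CPM with imiquimod. Every imiquimod library was below every other library. The fall was modest, at -0.43 (log2, SE 0.039, adjusted p = 8.26e-17) at 6 h and -0.66 (SE 0.04, adjusted p = 3.28e-26) at 16 h, or 1.35-fold and 1.58-fold lower.

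**Figure D2:**
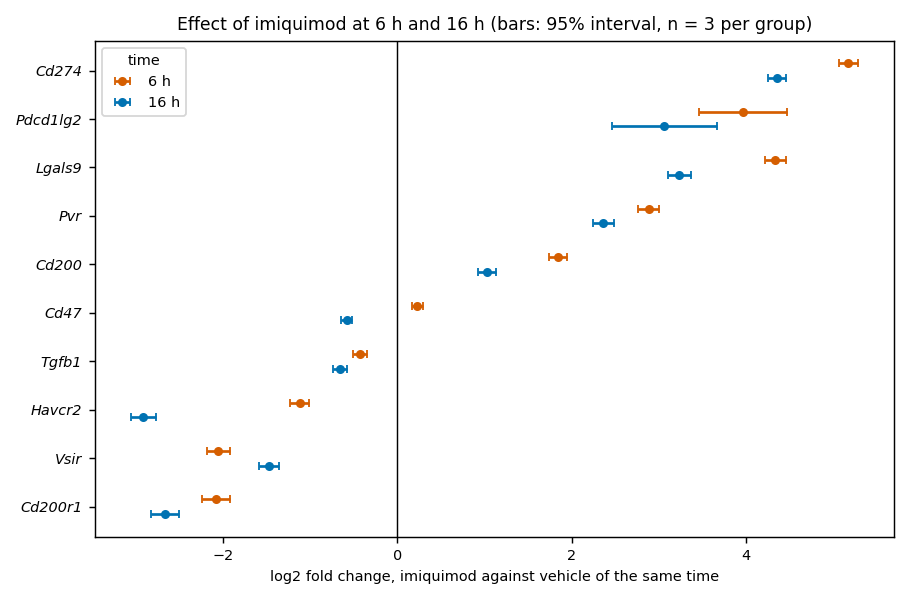
Log2 fold change of each gene for imiquimod against its time-matched vehicle (6 h and 16 h), n = 3 libraries per group. Bars are approximate 95% intervals built from edgeR's F statistic, which are too narrow for large changes. Cd274 is highest at 5.17 and 4.35, and Cd47 lies on opposite sides of 0 at the 2 times, with its 6 h value of 0.23 turning to -0.12 when libraries are scaled by totals.

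Havcr2 (ENSMUSG00000020399, chromosome 11, 46454935 to 46481255, plus strand) encodes TIM-3, a receptor of galectin-9 known on T cells and dendritic cells. It was at 80.1, 81.5 and 84.0 CPM in untreated libraries and 85.3, 82.0 and 76.3 CPM with vehicle at 0 h. The level was 81.1, 76.1 and 78.2 CPM with vehicle at 6 h against 33.6, 36.9 and 38.0 CPM with imiquimod, and 85.2, 85.9 and 82.9 CPM with vehicle at 16 h against 11.8, 11.6 and 10.3 CPM with imiquimod. The 12 libraries without imiquimod were close together, the 6 h imiquimod libraries were lower, and those at 16 h were lower again. Havcr2 fell by 1.12 (log2, SE 0.057, adjusted p = 1.9e-30, 2.17-fold lower) at 6 h and by 2.91 (SE 0.068, adjusted p = 2.77e-53, 7.51-fold lower) at 16 h.

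Vsir (ENSMUSG00000020101, chromosome 10, 60346851 to 60372684, plus strand) encodes VISTA, an inhibitory surface protein of myeloid and T cells that acts as ligand and as receptor. It was at 103, 101 and 101 CPM in untreated libraries and 95.7, 92.8 and 93.5 CPM with vehicle at 0 h. The level was 77.9, 88.4 and 88.1 CPM with vehicle at 6 h against 21.5, 20.2 and 19.5 CPM with imiquimod, and 89.1, 87.2 and 82.5 CPM with vehicle at 16 h against 31.9, 28.7 and 33.1 CPM with imiquimod. Here the 6 h imiquimod libraries were the lowest and those at 16 h lay between them and the vehicle. Vsir fell by 2.05 (log2, SE 0.064, adjusted p = 1.18e-44, 4.15-fold lower) at 6 h and by 1.47 (SE 0.057, adjusted p = 2.81e-38, 2.76-fold lower) at 16 h.

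Cd200r1 (ENSMUSG00000022667, chromosome 16, 44765736 to 44794978, plus strand) encodes the inhibitory receptor of CD200. It was at 58.0, 64.9 and 62.0 CPM in untreated libraries and 59.1, 62.9 and 66.1 CPM with vehicle at 0 h. The level was 59.6, 52.3 and 56.1 CPM with vehicle at 6 h against 13.1, 13.8 and 12.8 CPM with imiquimod, and 57.7, 64.0 and 61.4 CPM with vehicle at 16 h against 10.2, 10.1 and 8.5 CPM with imiquimod. Imiquimod libraries were lower than all others and did not overlap between the times. Cd200r1 fell by 2.08 (log2, SE 0.078, adjusted p = 2.32e-39, 4.23-fold lower) at 6 h and by 2.66 (SE 0.078, adjusted p = 1.63e-46, 6.34-fold lower) at 16 h. Of its 75 nt windows 0.401% also occur in the paralog Cd200r4.

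The summed levels of markers of other myeloid cells were also lower with imiquimod, though the single markers did not all fall. The summed level of 10 monocyte and macrophage markers was 1620 to 1760 CPM with vehicle at 6 h and 253 to 260 CPM with imiquimod, and 2040 to 2120 CPM with vehicle at 16 h and 103 to 119 CPM with imiquimod. Of the 10, 8 were tested, with 4 called higher and 4 lower at 6 h and 3 higher and 5 lower at 16 h. Of all genes tested, 76.9% were called at 6 h and 77.2% at 16 h. Ccr2, a chemokine receptor that pDCs also express, was most of the sum with vehicle, at 1320 CPM at 6 h and 1730 CPM at 16 h, and stood at 71.1 and 28.5 CPM with imiquimod. The 7 markers of cDC1, a conventional dendritic cell type, summed to 1370 to 1380 and 544 to 574 CPM at 6 h and to 1180 to 1230 and 502 to 536 CPM at 16 h, in vehicle and imiquimod. The 7 markers of cDC2, another such type, went from 395 to 422 down to 198 to 203 CPM at 6 h and from 426 to 436 down to 142 to 144 CPM at 16 h, and among them Cd209a was at 0 with imiquimod at 16 h. All 7 cDC1 markers were called lower at 6 h, and 6 were lower and 1 not called at 16 h. For cDC2, 6 were lower and 1 not called at 6 h, and 5 lower, 1 higher and 1 not called at 16 h. The beads also capture B220 on B cells, whose 6 markers summed to 108 to 118 and 171 to 185 CPM at 6 h and to 114 to 145 and 192 to 205 CPM at 16 h. Of these, Pax5, named after its values were seen, was at 18.9 and 112 CPM at 6 h and 21.3 and 133 CPM at 16 h, while 4 of the 6 were called lower and 2 higher at 6 h and 5 lower and 1 higher at 16 h (median log2 fold changes -0.38 and -0.51). Markers of T and NK cells and of neutrophils and mast cells summed to at most 4.24 CPM in any library. The part of these cell types in the changes of Havcr2, Vsir and Cd200r1, or of the ligands, was not tested.

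Set beside each other per kilobase of exon, the ligands and receptors changed places. The ratio of Lgals9 to Havcr2, the galectin-9 and TIM-3 pair, was 0.411 ± 0.0156 (SD, n = 3) in untreated libraries, 0.228 ± 0.0366 with vehicle at 6 h and 0.22 ± 0.0372 with vehicle at 16 h. With imiquimod it was 9.94 ± 0.604 at 6 h and 15.6 ± 1.39 at 16 h, so the ligand mRNA passed the receptor mRNA in every imiquimod library and in no other. The ratio of Cd200 to Cd200r1 was 0.412 ± 0.0165 in untreated libraries, 0.667 ± 0.0289 and 0.88 ± 0.0681 with vehicle at 6 and 16 h, and 10.1 ± 0.622 and 11.5 ± 1.42 with imiquimod at 6 and 16 h. These ratios are taken within a library and do not depend on how libraries are scaled, but they do depend on the exon lengths used.

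Cd47 had the highest level per kilobase of the 10 genes in untreated cells, at 146 ± 0.997 CPM per kb (SD, n = 3) in untreated libraries, where Tgfb1 followed at 37.9, Havcr2 at 30.1, Vsir at 20.3, Cd200r1 at 18.4, Lgals9 at 12.4, Cd200 at 7.57, Pvr at 6.4, Cd274 at 5.14 and Pdcd1lg2 at 0.313 CPM per kb. With imiquimod at 6 h the order was Cd47 at 164, Lgals9 at 132, Cd274 at 115, Cd200 at 39.8, Tgfb1 at 27.8, Pvr at 24.7, Havcr2 at 13.3, Pdcd1lg2 at 4.45, Vsir at 4.07 and Cd200r1 at 3.95 CPM per kb. The last 3 of these lay close together and were not tested against each other. At 16 h Cd274, at 106 ± 0.511 CPM per kb, was level with Cd47, at 106 ± 2.22. In CPM the 2 were at 384 and 668. The per-kilobase levels divide by all annotated exons of a gene, 3622 nt for Cd274 and 6276 nt for Cd47. Which isoforms were expressed was not tested, and the SD does not cover that choice of length. The ratio of Cd274 to Cd47 per kilobase was 0.0352 ± 0.00169 in untreated libraries, 0.701 ± 0.0335 with imiquimod at 6 h and 0.997 ± 0.0159 at 16 h, ranging from 0.979 to 1.01 in the last.

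PD-L1 mRNA made up 1.81% of the summed per-kilobase level of the 10 genes in untreated libraries, 1.21% with vehicle at 6 h, 21.8% with imiquimod at 6 h and 29.1% with imiquimod at 16 h. The share of Cd47 went from 51.3% in untreated libraries to 31.0% and 29.1% with imiquimod at the 2 times. Galectin-9 mRNA held 24.9% at 6 h and 17.5% at 16 h. The sum itself was 284 ± 3.3 CPM per kb in untreated libraries, 265 ± 7.26 and 292 ± 1.29 with vehicle at 6 and 16 h, and 529 ± 3.03 and 365 ± 3.24 with imiquimod at 6 and 16 h (SD, n = 3).

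**Figure D3:**
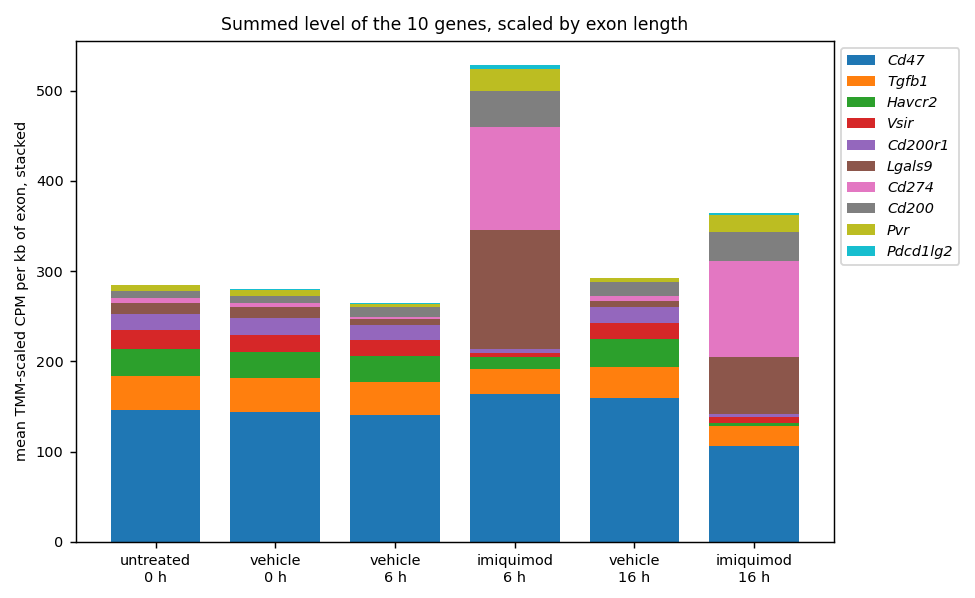
Mean level per kilobase of exon of the 10 genes in each group, stacked from 0, in TMM-scaled CPM per kb (3 libraries per group). Cd274 and Lgals9 take thin bands in the untreated and vehicle groups, and 21.8% and 24.9% of the stack with imiquimod at 6 h.

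Most effects differed between the 2 times, most often toward a lower value at 16 h. The test of the difference itself (16 h effect minus 6 h effect) called 8 of the 10 genes lower and 1 higher, where 56.9% of all genes were called, 28.4% lower and 28.5% higher. Of all calls 50.1% were higher, and 75.5% with library totals. Havcr2 had the largest difference, at -1.79 (log2, adjusted p = 5.47e-29), a deeper fall at 16 h. Lgals9, at -1.1 (adjusted p = 1.31e-15), kept a rise that was smaller at 16 h. Vsir was the single gene called higher, at 0.59 (adjusted p = 2.53e-08), a shallower fall at 16 h. For Pdcd1lg2 the difference was -0.9 with a 95% interval of -1.94 to 0.14 (adjusted p = 0.132), which leaves both no difference and a large one possible at its counts. With library totals as the scale, 5 genes in place of 8 were called lower: Pvr (-0.18, adjusted p = 0.0838) and Cd200r1 (-0.25, adjusted p = 0.0743) were no longer called, and Tgfb1 turned to 0.11 (adjusted p = 0.0921).

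Comparing the imiquimod libraries at 16 h directly with those at 6 h, 9 genes were lower and 1, Vsir, was higher by 0.61 (log2), where 63.7% of all genes were called, 31.8% lower and 31.9% higher. Under library totals 74.6% of all calls were higher in place of 50%, and 5 of the 10 genes were lower and 2 higher, since Cd274 turned to higher, Cd200 turned to 0.01 and Tgfb1 and Cd200r1 lost their calls. The falls that kept their call under both scalings were those of Havcr2 (-1.68), Lgals9 (-1.04), Pdcd1lg2 (-1.03), Cd47 (-0.62) and Pvr (-0.4), given with TMM.

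Culture with the vehicle alone also moved several of the genes. At 6 h against vehicle at 0 h, 5 were called lower and 1 higher, where 52.9% of all genes were called, 26.9% lower and 26% higher. Pvr had the largest fall, at -0.99 (log2, adjusted p = 2.18e-21), followed by Lgals9 at -0.83 (adjusted p = 1.76e-14) and Cd274 at -0.62 (adjusted p = 2.12e-09). Cd200 rose by 0.49 (adjusted p = 1.96e-10). The calls of Vsir (-0.15, adjusted p = 0.00652) and Cd200r1 (-0.16, adjusted p = 0.0115) rested on single libraries: Vsir had an adjusted p of 0.179 without the first vehicle library of 6 h, and Cd200r1 one of 0.143 without the second and of 0.141 without the third vehicle library of 0 h.

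At 16 h against vehicle at 0 h, 4 genes were called lower and 2 higher, where 58.4% of all genes were called, 30% lower and 28.4% higher. Pvr (-0.88, adjusted p = 1.09e-18) and Lgals9 (-0.77, adjusted p = 4.81e-13) stayed below the start of culture, while Cd274 was not called (0.08, 95% interval -0.08 to 0.24). Cd200 rose by 1.02, beside 1.03 for imiquimod over vehicle at 16 h, and Cd47 rose by 0.14 (adjusted p = 0.000117). Tgfb1 (-0.09, adjusted p = 0.0341) and Vsir (-0.12, adjusted p = 0.0235) had small falls that were both lost in DESeq2's Wald test (adjusted p = 0.0992 and 0.0783). Both were also lost without the first vehicle library of 0 h (adjusted p = 0.335 and 0.108) or the third of 16 h (0.0783 and 0.146), which left 2 genes called lower. Tgfb1 also lost its call without the second vehicle library of 0 h (0.0985) or the first of 16 h (0.198), and Vsir without the third of 0 h (0.0635). The imiquimod and vehicle comparisons share the vehicle libraries, and those with vehicle at 0 h share that group. Vehicle at 0 h against untreated cells called 0 of the 10 genes and 0% of all genes in edgeR, with 1 of the 10 (Vsir, log2 -0.11) and 708 genes in all at an unadjusted p under 0.05. DESeq2's Wald test called 0 genes as well.

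The neighbourhood of Cd274 was described because Pdcd1lg2 and the kinase gene Jak2 lie in it. Within 500 kb of the Cd274 start, a window chosen after values were seen, 12 genes besides Cd274 and Pdcd1lg2 were tested. At 6 h 7 of these 12 were higher and 5 lower (median log2 fold change 0.53; 6 and 6 with library totals), and at 16 h 5 were higher and 4 lower (median 0.11), beside the 76.9% and 77.2% of all genes called at the 2 times. Plgrkt, whose start is 65 bp from that of Cd274 on the other strand when both are taken from GENCODE M21, rose by 0.91 at 6 h and 0.73 at 16 h, far less than Cd274 itself. Insl6, a relaxin-family gene 42.1 kb away, rose by 3.62 and 2.7. Jak2 rose by 1.61 and 0.14, Rcl1 by 2.06 and 1.69 and Ric1 by 1.33 and 1.28, while the adenylate kinase gene Ak3 fell by 2.17 and 1.23. Cd274 had the highest log2 fold change in the window at both times, and the 95% intervals of Pdcd1lg2 (3.46 to 4.46 and 2.46 to 3.66) include the values of Insl6.

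**Figure D4:**
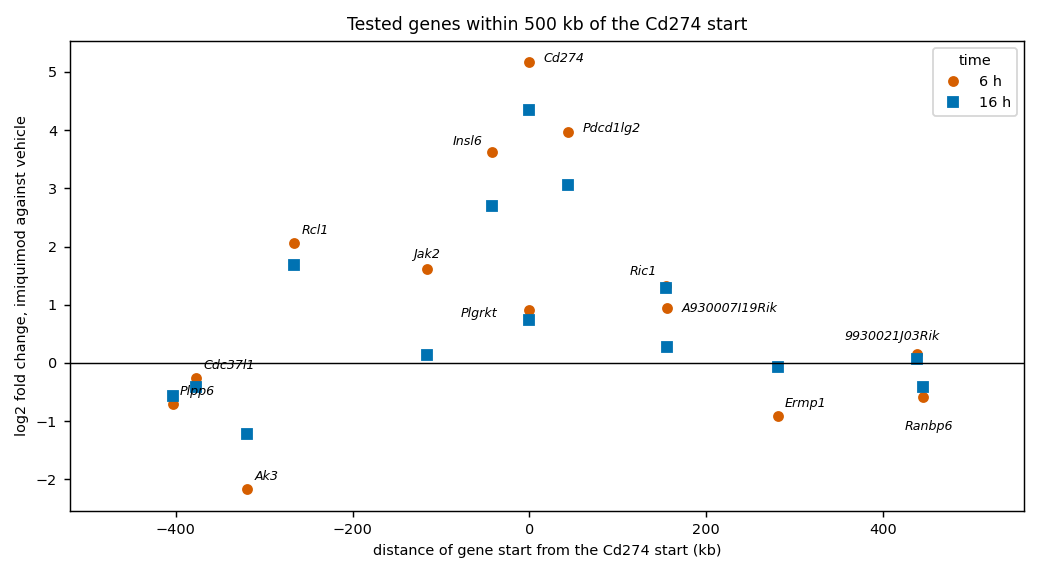
Log2 fold change at 6 h and 16 h (imiquimod against vehicle) of the tested genes within 500 kb of the Cd274 start, against distance from that start in kb. Cd274 at 0 kb and Pdcd1lg2 at 43.5 kb are plotted with their neighbours, Cd274 is the highest at both times, and Plgrkt beside Cd274 rose by 0.91 and 0.73.

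The receptors, binding partners and regulators of the 10 genes formed a list of 86 genes, of which 85 were found and 71 tested. At 6 h 41 rose, 21 fell and 9 were not called (median log2 fold change 0.37), and at 16 h 38 rose, 30 fell and 3 were not called (median 0.18), beside the 76.9% and 77.2% of all genes called. With library totals 32 rose, 29 fell and 10 were not called at 6 h, and the counts at 16 h were the same. Genes with few counts in the vehicle libraries can pass the filter through the imiquimod libraries alone and then have to differ.

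Of the PD-1 axis, all 5 genes were tested and called, 3 higher and 2 lower at 6 h (2 and 3 with library totals) and 2 higher and 3 lower at 16 h. Cd80, the co-stimulatory ligand that also binds PD-L1 on the same cell, rose from 12.8 ± 0.636 to 147 ± 3.22 CPM at 6 h and from 15.9 ± 1.65 to 109 ± 3.31 CPM at 16 h (SD, n = 3), log2 3.52 and 2.78. Pdcd1, PD-1 itself, rose by 2.88 and 1.81 to 3.35 and 2.96 CPM. At levels this low it may have passed the filter through the imiquimod libraries alone, and would then have had to differ. Cmtm6, which keeps PD-L1 protein at the cell surface, moved little, at 0.25 (-0.1 with library totals) and -0.22, and its relative Cmtm4 fell by 2.16 and 2.08.

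Of 12 genes that carry signals known to induce PD-L1, 10 were higher and 2 lower at 6 h (8 and 3 with library totals) and 8 higher and 4 lower at 16 h. Stat3, a cytokine signal transducer, rose by 1.92 and 1.1. Jak2 went from 398 ± 9.06 to 1210 ± 20.1 CPM at 6 h (SD, n = 3) (log2 1.61) and rose by 0.14 at 16 h, and Nfkb1 rose by 1.44 and 0.2. Ifngr1, the ligand-binding chain of the interferon-gamma receptor, fell by 2.55 and 2.33, from 133 to 22.7 CPM and from 119 to 23.6 CPM.

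Of 6 genes of the galectin-9 and TIM-3 axis, 4 were higher and 2 lower at 6 h (2 and 2 with library totals) and all 6 higher at 16 h. Cd44, an adhesion receptor bound by galectin-9, rose from 353 ± 20.1 to 4400 ± 151 CPM at 6 h (SD, n = 3, log2 3.64) and by 1.77 at 16 h. Ceacam1, a TIM-3 partner, rose by 2.18 and 1.13. Of the 3 VISTA partners 2 were tested: Selplg, the adhesion protein PSGL-1, was at 0.17 (-0.18 with library totals) and -0.27, and Lrig1 was at 0.37, not called, and 2.26.

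Of 5 tested genes of the CD200 receptor axis, 2 were higher and 3 lower at each time. Among the adaptors downstream of CD200R1, Dok2 rose by 2.45 and 2.27 and Dok1 by 1.09 and 1.1, while Inpp5d, the phosphatase SHIP1, fell by 2.05 and 1.6, from 526 to 127 CPM at 6 h and from 530 to 174 CPM at 16 h. The paralog Cd200r4 was at 2.34 and 2.91 CPM with vehicle and fell by 1.03 and 1.92.

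The PVR and nectin axis had 6 tested genes, 3 higher, 2 lower and 1 not called at 6 h (3, 3 and 0 with library totals) and 2, 3 and 1 at 16 h. Nectin2, the other ligand of TIGIT and DNAM-1, rose from 1.23 ± 0.539 to 37.1 ± 2.34 CPM at 6 h (SD, n = 3, log2 4.9) and to 12.5 ± 1.45 CPM at 16 h (log2 3). Nectin4 rose by 3.31 and 1.87. Cd226, the gene of DNAM-1, fell by 1.08 and 2.85, and Cd96 by 1.05 and 2.15. Tigit did not pass the filter, with 23 counts over the imiquimod libraries and 1 over the vehicle libraries at 6 h and 36 and 0 at 16 h.

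In the TGF-beta axis 18 genes were tested, 10 higher, 5 lower and 3 not called at 6 h (10, 7 and 1 with library totals) and 10 higher and 8 lower at 16 h. Ltbp1, Ltbp3 and Ltbp4 encode proteins that bind latent TGF-beta in the matrix. Ltbp1 rose from 0.155 ± 0.156 to 9.9 ± 0.769 CPM at 6 h and from 0.271 ± 0.246 to 20.6 ± 0.455 CPM at 16 h (SD, n = 3), and Ltbp3 from 0.319 ± 0.169 to 15.8 ± 0.422 CPM and from 1.34 ± 0.442 to 69.9 ± 1.65 CPM. Ltbp1, with at most 11 counts in any library without imiquimod, passed the filter only through the imiquimod libraries and so had to differ, and Ltbp3 and Lrrc32 each had 2 to 6 counts per vehicle library at 6 h. Ltbp4 did not pass the filter, with 0 counts over the imiquimod libraries and 15 over the vehicle libraries at 6 h and 4 and 9 at 16 h. The presenting proteins GARP (Lrrc32, 4.86 and 2.67) and NRROS (Nrros, 1.73 and 0.89) and the activating integrin chain Itgb8 (2.76 and 1.16) rose as well. On the receiving side Tgfbr1 fell by 1.47 and 1.62 and the feedback inhibitor Smad7 by 1.08 and 1.68.

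In the CD47 axis 8 genes were tested, 3 higher, 1 lower and 4 not called at 6 h (1, 3 and 4 with library totals) and 4 higher, 3 lower and 1 not called at 16 h. Sirpa, the CD47 receptor, which is also in the cDC2 marker list, fell by 0.74 and 1.07, from 243 to 145 CPM and from 244 to 116 CPM, and its relative Sirpb1b rose by 2.37 and 3.15, from 14 to 60 counts over 3 libraries at 6 h and from 4 to 45 at 16 h. Another relative, Sirpb1a, rose by 3.39 at 16 h, from 4 to 53 counts, and was not called at 6 h. With so few vehicle counts, both relatives may have passed the filter only through the imiquimod libraries, which would fix a rise in advance. Qpct, an enzyme gene of the glutaminyl cyclase family, was called lower at 16 h, with 0 counts against 11 in the vehicle libraries. The phosphatases that act below SIRP-alpha moved little. Ptpn11 was at 0.31 (-0.04 with library totals) and 0.42, and Ptpn6 at 0.26 (-0.09 with library totals) and 0.18. Among 9 other tested checkpoint genes, 5 were higher and 4 lower at 6 h (4, 4 and 1 not called with library totals) and 3 higher, 5 lower and 1 not called at 16 h. Icosl, the ligand of ICOS, rose from 102 ± 2 to 910 ± 8.8 CPM at 6 h (SD, n = 3) and from 119 ± 4.61 to 224 ± 7.49 CPM at 16 h. Cd276, B7-H3, fell by 2.76 and 2.03 from about 2 CPM. Clec4g was at 0 counts in all 6 imiquimod libraries, against 59 counts over the vehicle libraries at 6 h and 50 at 16 h.

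**Figure D5:**
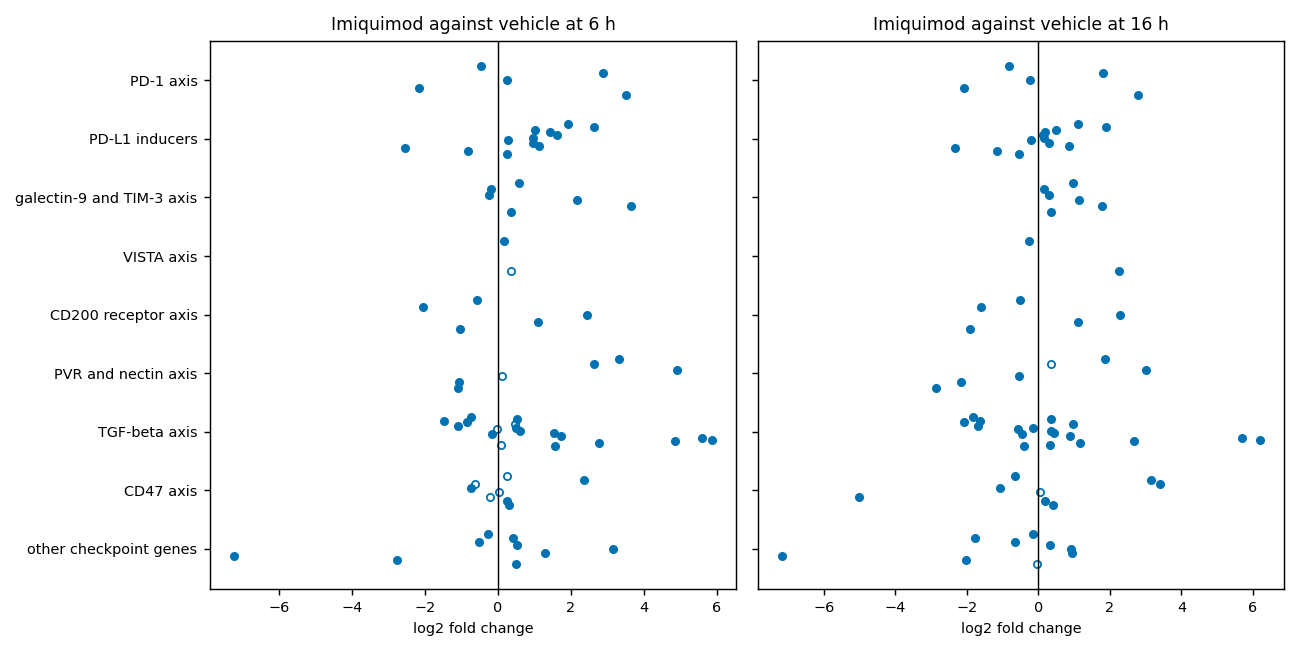
Log2 fold change at 6 h and 16 h (imiquimod against vehicle) of the tested partner genes, grouped by axis, with filled points for genes called at an adjusted p under 0.05 and open points for the rest. Ltbp1, Ltbp3, Nectin2 and Lrrc32 lie highest at 6 h, at 5.88, 5.6, 4.9 and 4.86, and 6 h values near 0 change sign when libraries are scaled by totals.

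The genes most like Cd274 and Vsir were found by Pearson's r over the 6 group means of log2(CPM + 1), among 8446 genes with a mean of at least 10 CPM, as a description with no test, since 6 means with 1 treatment leave many genes near r = 1. For Cd274 they were Sinhcaf (0.9994), Ergic1 (0.9992), Sipa1l1 (0.9988), Inpp5b (0.9984) and B2m (0.9984), the light chain of MHC class I. B2m went from 441 ± 31.1 CPM with vehicle to 2060 ± 82.4 CPM with imiquimod at 6 h and from 562 ± 21.8 to 1900 ± 51 CPM at 16 h, the same shape as Cd274 at a smaller ratio. For Vsir they were Rassf5 (0.9991), Tmem185a (0.9991), Me2 (0.999), Tspan13 (0.9988) and Tpcn1 (0.9987). Tpcn1, an endolysosomal ion channel gene, went from 50.6 ± 3.18 to 9.32 ± 2.04 CPM at 6 h and from 54.2 ± 4.54 to 14.4 ± 0.773 CPM at 16 h, again lower at 6 h than at 16 h. The same 5 genes were found for each with a pseudocount of 0.1.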

How the data were processed

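The authors deposited raw read counts for each gene, and these were used as supplied. STAR and mm10 are named in the submitters' processing notes; the STAR version, counting program, strand setting, handling of reads with several matches and annotation release are not given in the sources used here. The libraries were rRNA-depleted, directional and paired-end with 75 nt reads, per the labels' protocols. Coordinates and exon lengths are from GENCODE M21 (mm10), in which 97.8% of the versioned gene identifiers and 99.9% without version were found, Pdcd1lg2 by its unversioned identifier.

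One model over all 18 libraries was fitted with edgeR 4.0.16 under R 4.3.3, using the robust quasi-likelihood test, filterByExpr with a minimum count of 10, and TMM scaling, with p-values adjusted by Benjamini-Hochberg over all 14876 genes tested in a comparison and a gene called under 0.05. Adjusted p-values come from edgeR where no other tool is named. The SE is the absolute log2 fold change divided by the square root of F, which understates the error where a large change rests on few counts. The coefficient of variation from edgeR's common dispersion was 3.08%, and all 6 groups shared 1 estimate of spread per gene. The vehicle libraries at 6 h agreed least with each other. Their chi-square per gene was 4.21 to 10.5 between pairs of libraries, against 1.32 to 4.21 within the other groups, where 1 is counting noise alone. Means and SDs are over 3 libraries. The fit was also run on counts simulated from its own dispersions, with known changes in few genes of a single group, as many up as down. In these data most genes changed, so that simulation cannot speak to the choice of scaling. The alternatives were DESeq2 size factors, library totals, other filters, a replicate block, only the groups compared, DESeq2 1.42.0 and each library left out.

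The 10 genes and all lists were chosen with earlier results of these data known. All 10 genes are reported in every group. For each partner axis up to 5 of the called genes with the largest absolute change were eligible to be named, and others named were chosen after their values were seen. One listed gene, Hhla2, matched no row. One gene of the partner list that this rule makes eligible is not reported here.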

Additional observations from a re-analysis of the deposited data

Results flagged for a closer look

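The effect of imiquimod differed between 6 h and 16 h for 9 of the 10 genes by a test of the difference itself (16 h minus 6 h, log2, edgeR). It was more negative at 16 h for Havcr2 (-1.79), Lgals9 (-1.1), Cd274 (-0.81), Cd200 (-0.81), Cd47 (-0.8), Cd200r1 (-0.58), Pvr (-0.52) and Tgfb1 (-0.23). It was more positive for Vsir (0.59), which fell less at 16 h than at 6 h. A difference was called for 56.9% of all genes in the same test. For Lgals9, Cd274, Pvr and Cd200 it means a smaller rise at 16 h, for Havcr2, Cd200r1 and Tgfb1 a deeper fall, and for Cd47 values on opposite sides of 0 with TMM scaling. With library totals as the scale, Tgfb1 turned to 0.11 and Pvr (-0.18) and Cd200r1 (-0.25) were no longer called.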

How the results depend on the processing

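Over the other settings, 614 of 627 values of single genes kept their call and 181 of 189 counts stayed within 1.5 times. With each library left out in turn, 590 of 600 values and 175 of 180 counts did. A change of sign was held against a value only if it was called in the main or the other setting. Values near 0 that were called in neither could change sign and still count as kept. Both effects on Cd274 stayed called throughout, at 4.82 to 5.19 (6 h) and 4.33 to 4.39 (16 h). Scaling by library totals turned Cd47 to -0.12 at 6 h against vehicle 6 h and to -0.17 against vehicle 0 h, and Tgfb1 to 0.11 in the difference between the effects. For imiquimod at 16 h against 6 h it turned Cd274 to 0.18 and Cd200 to 0.01, with 2 of the genes called higher and 5 lower, and it left 5 called lower in the difference between the effects. DESeq2's Wald test called 2 lower for vehicle at 16 h against 0 h, and leaving out a library gave 2 to 4. Vehicle at 0 h against untreated cells called 1 gene with DESeq2 size factors, 1 with library totals, 5 with no filter and 4 with only those groups, and 0 to 7 with a library left out (7 without the third untreated library, 2 and 1 without the second and the third vehicle library). With only the groups compared, Pdcd1lg2 was filtered out of the 3 comparisons without imiquimod and gave no value. Its 4 to 10 counts there limit its precision.

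Replicate numbers did not pair the libraries: correlations of same-numbered deviations ran from -0.07 to 0.04, and 5 of 18 libraries correlated best with their own number. A replicate block changed no call among the 10 genes, with 11400 genes called at 6 h and 11448 at 16 h in place of 11439 and 11490.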
